A study of Mus musculus with 4 samples.

Results

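Small coding sequences were taken as the transcripts with a deposited coding length under 100 codons and at least 60 ribosome footprints summed over the 4 libraries of the series. Of 63759 transcripts in the deposited tables, 2011 were under 100 codons. Among these, 673 had no footprint in any library, 541 had 1 to 59, and 797 had at least 60. Transcripts with identical counts in all 4 libraries were reduced to the first, which dropped 113 and left 684 members of 16 to 99 codons (median 83). Coding length and summed count chose the members, and the difference between the groups was not part of the rule. The control libraries held 75.4% of all counts, so the summed count rests mostly on them.

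The cells were wild-type C57BL/6 mouse embryonic fibroblasts, primary connective tissue cells grown to full confluence. All 4 libraries came from cells synchronised with dexamethasone (Dex), a glucocorticoid that brings the circadian clocks of cultured cells into a common phase, and shifted from 35 °C to 38.5 °C 24 h later. Control cells (2 libraries) had the temperature shift alone, and wortmannin cells (2 libraries) were also given 17β-hydroxy wortmannin, an inhibitor of phosphoinositide 3-kinase (PI3K), at a dose not given in the sources used here. No library without the temperature shift was part of the comparison. Replicates of a group are separate samples in the labels, which mention independent experiments without saying which libraries shared one, so p-values measure the spread between these libraries.

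Ribosome profiling reads the short mRNA fragments that ribosomes protect from nuclease, so a count reflects both how much mRNA is present and how densely ribosomes occupy it. Short coding sequences in mammals include many of the smallest ribosomal proteins, small subunits of the respiratory chain, histone H4, thymosins and S100 calcium-binding proteins. They also include ubiquitin-like modifiers and short or truncated isoforms of longer genes. Ribosomal protein mRNAs begin with a 5′ terminal oligopyrimidine (TOP) motif, and their translation is known to depend on PI3K signalling through mTOR complex 1, the kinase complex that couples nutrients and growth factors to protein synthesis.

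The deposited tables do not pair transcripts with gene names, and deposited lengths fit annotated coding lengths when 9 codons are added. With this addition 94.5% of 1466 transcripts over 1500 codons had the length of an annotated coding transcript (GENCODE M21, GRCm38). Each member length was shared by 6 to 63 annotated genes (median 42), so a length cannot name a gene here. The scale of these sequences is shown by the coding sequence of Rpl41, which encodes the smallest protein of the large ribosomal subunit. It has 25 codons before the stop, or 16 on the deposited scale, the length of the shortest member. Without the stop codon it lies on the minus strand at chr10:128548390-128548960 (GRCm38) in 3 coding exons, and with the stop codon it is 78 bases long. It is 1 of 6 annotated genes with a coding transcript of that length, so the member of 16 codons need not be Rpl41. Start and stop codons are in capitals.
Rpl41: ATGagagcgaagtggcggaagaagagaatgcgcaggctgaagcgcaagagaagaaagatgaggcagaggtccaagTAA

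The control libraries were the deeper ones, with 15376778 (replicate 1) and 31110420 (replicate 2) counts in all, against 7677780 and 7485868 for wortmannin. All of these counts lay in transcripts with a coding length, and the 17340 transcripts without one were at 0. The fibroblast identity was read through marker lengths that belong to 1 gene alone. A transcript of Fn1 length (2352 codons, the matrix protein fibronectin) stood at 15551 to 21239 CPM (counts scaled to a library total of 1000000), and one of Col5a1 length (1829 codons, a fibrillar collagen) at 1194 to 1512 CPM. Of 15 listed markers of other cell types 6 had such a length. Vwf (endothelial), Itgb4 (epithelial), Ryr1 and Nrap (muscle) lengths stayed at 0.195 CPM or less in every library, while Lama3 (epithelial) length was at 0.651 to 1.60 CPM and Nes (neural) length at 13.42 to 18.97 CPM. Whether cells of other kinds bear on the results was not tested. Levels of mRNA were not analysed here. Lower footprint counts cannot be told apart from less mRNA per cell, or from fewer cells of a kind that carries the mRNA.

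Footprints on small coding sequences were mostly lower with wortmannin. Of the 684 members, 257 fell, 31 rose and 396 did not pass (edgeR quasi-likelihood test fitted over all 25868 transcripts with at least 60 counts, Benjamini-Hochberg adjusted p under 0.05). The fallen members were 37.6%, against 20.1% of the 22517 transcripts with distinct counts in the same fit. The risen members were 4.53%, against 14.3%. Median log2 fold change was -0.47 over the members and -0.04 over all distinct transcripts. The middle 50% of members lay between -0.95 and 0.05, and single members ranged from -3.68 to 2.27.

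Both wortmannin libraries lay below both control libraries for 383 members (56.0%, against 38.3% of all distinct transcripts) and above them for 97 (14.2%, against 31.1%), while the groups overlapped for 204. All 257 falls and all 31 rises were without overlap. Falls past 4-fold were called for 18 members (2.63%, against 0.808% of all distinct transcripts) and rises past 4-fold for 2 (0.292%, against 0.457%). Without control replicate 2, the deepest library, the median log2 fold change was -0.45 over the members and -0.04 over all 25868 transcripts. DESeq2 called 165 members lower and 21 higher, and 2632 lower and 2327 higher of all 25868 transcripts.

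**Figure D1:**
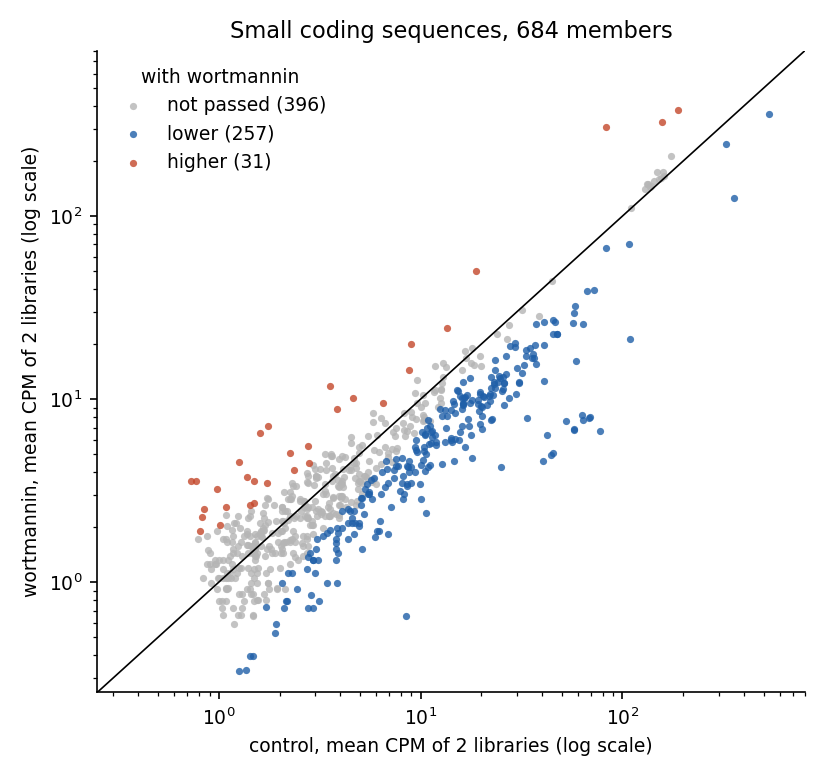
Mean CPM of the 2 control libraries (x axis) and of the 2 wortmannin libraries (y axis) for each of the 684 members, both axes on a log scale, coloured by the call in edgeR; the line marks equal values. Most of the 257 called falls lie in a band below the line, and the 15 members of at least 10 CPM that fell past 4-fold lie under this band.

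The share that fell was largest among the shortest coding sequences. Of 19 members of 16 to 49 codons, 14 fell and none rose, with a median log2 fold change of -1.13. At 50 to 59 codons 16 of 27 fell and none rose (median -0.71), and at 60 to 69 codons 38 of 90 fell and 3 rose (median -0.45). From 70 to 79 codons 50 of 132 fell and 10 rose (median -0.56), and from 80 to 89 codons 69 of 181 fell and 10 rose (median -0.41). The longest members, of 90 to 99 codons, had 70 of 235 lower and 8 higher (median -0.37). Above the limit, 28.6% of 3250 transcripts of 100 to under 200 codons fell and 8.03% rose (median -0.27). At 800 codons or more the order was turned, with 11.8% of 4381 lower and 23.5% higher (median 0.13). These shares describe the length classes, and the difference between classes was not tested. The classes also differed in abundance. The median of mean CPM was 9.52 at 16 to 49 codons, 5.02 at 50 to 59 and 3.40 to 4.07 in the classes from 60 to 99. It was 4.70 at 100 to under 200 codons and 16.5 at 800 codons or more.

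**Figure D2:**
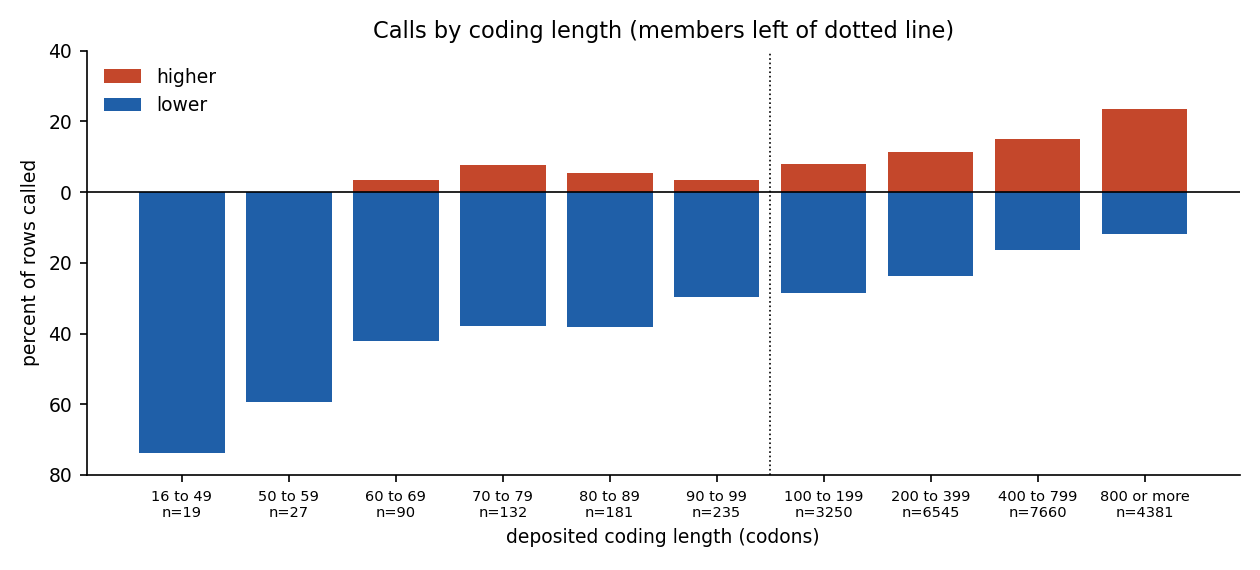
Percent of transcripts called higher (bars above 0) and lower (bars below 0) with wortmannin in each class of deposited coding length, with the number of transcripts under each class; the dotted line separates the members from longer transcripts. The lower share goes from 73.7% at 16 to 49 codons to 11.8% at 800 codons or more.

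The shortest member, of 16 codons, the length of Rpl41, had 47.8 and 56.8 CPM in control and 8.08 and 7.08 CPM with wortmannin. Every wortmannin value was thus less than each control value by several-fold. On the log2 scale the change was -2.79 ± 0.15 (SE, 2 libraries a group; adjusted p = 1.95e-06 in edgeR). Of 2 members of 42 codons, a length that Rpl39, another very small protein of the large subunit, has among 21 genes, the more abundant went from 37.8 and 43.2 CPM to 4.95 and 4.27 CPM (log2 fold change -3.14 ± 0.16). The other was at 2.86 and 3.31 CPM in control and 1.30 and 1.34 CPM with wortmannin (-1.25 ± 0.30). At 43 codons the only member, at a length annotated for a short isoform of Rps27, for Atp5e (the epsilon subunit of ATP synthase) and for other genes, fell by 1.91 on the log2 scale.

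At 35 codons, the length of the actin-sequestering thymosins Tmsb4x (a short isoform) and Tmsb10 among 14 genes, both members fell. The more abundant stood at 67.3 and 76.8 CPM in control and at 42.2 and 36.7 CPM with wortmannin (log2 fold change -0.87 ± 0.12). The less abundant went from 36.4 and 36.3 CPM to 17.8 and 15.8 CPM (-1.11 ± 0.12). The groups of 2 libraries did not overlap for either. At 28 codons, the length of Ost4, a subunit of the oligosaccharyltransferase that glycosylates secreted proteins, among 12 genes, the member had 10.3 CPM in each control library and 5.47 and 3.87 CPM with wortmannin (-1.14 ± 0.19). The 5 members under 50 codons that did not pass were all under 5 CPM on average, from -0.81 to 0.34 in log2 fold change.

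**Figure D3:**
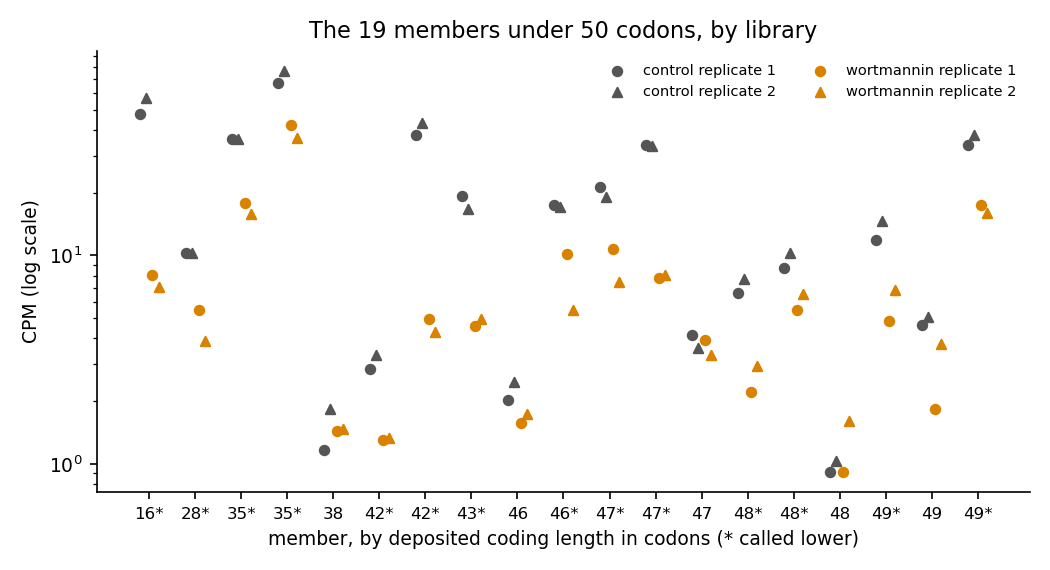
CPM in each of the 4 libraries (log scale) for the 19 members under 50 codons, ordered by deposited length; circles are replicate 1 and triangles replicate 2, and a star marks the 14 members called lower. In each starred member both wortmannin points lie below both control points, with the widest gaps at 16 and 42 codons.

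Most falls past 4-fold lay at lengths of ribosomal proteins, though the 2 steepest did not. A list of 13 genes for cytosolic ribosomal proteins of the small size class gave 13 deposited lengths, 12 of which held members, 163 in all. This list was chosen with earlier results of these data known, so its direction is not independent evidence. Among the 163 members 64 fell (39.3%) and 8 rose, and their median of -0.47 equalled that of the 521 members at other lengths (-0.47), of which 193 fell and 23 rose. Past 4-fold, however, 13 of the 18 falls were at a ribosomal protein length. Such a fall was found at 11 of the 12 ribosomal protein lengths and at 5 of the other 46 member lengths, with no test of that difference. Lists share lengths, and of the same 18 falls 10 were at a respiratory chain or ATP synthase length and 5 at a mitochondrial import length. These were 3.29% of 304 members and 2.20% of 227, against 7.98% of the 163 at a ribosomal protein length. The other lists held 3 or fewer each. The steepest fall of all was in a member of 69 codons, from 8.19 and 8.81 CPM to 0.781 and 0.534 CPM (log2 fold change -3.68 ± 0.29), at a length with no listed ribosomal protein.

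Single members stood apart from the rest of their length. At 96 codons, the length of Rpl36 and of an isoform of Rps27l among 53 genes, 1 of 34 members went from 62.2 and 64.1 CPM to 8.99 and 7.35 CPM (log2 fold change -2.95 ± 0.14), while the median of that length was -0.19. At 83 codons, the length of Rpl37a, 1 of 21 members went from 39.9 and 44.7 CPM to 6.90 and 5.88 CPM (-2.73 ± 0.15), against a median of -0.74. At 97 codons, shared by Rpl36a and Rpl36al, the lowest of 33 members was at -2.54 ± 0.16, against a median of -0.51.

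The member of 60 codons with the largest fall, a length of the small-subunit protein Rps28, went from 57.7 and 58.0 CPM to 9.25 and 4.27 CPM. Of 6 members of 61 codons, the length of Rpl38, the most abundant went from 105 and 112 CPM to 21.4 and 21.5 CPM (log2 fold change -2.34 ± 0.12). At 47 codons, a length of Rps29, 2 of 3 members fell, and the largest fall was from 33.8 and 33.3 CPM to 7.81 and 8.02 CPM. These members were singled out after their values were seen. Of all 18 members past 4-fold, 17 were at 10 CPM or less in both wortmannin libraries.

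**Figure D4:**
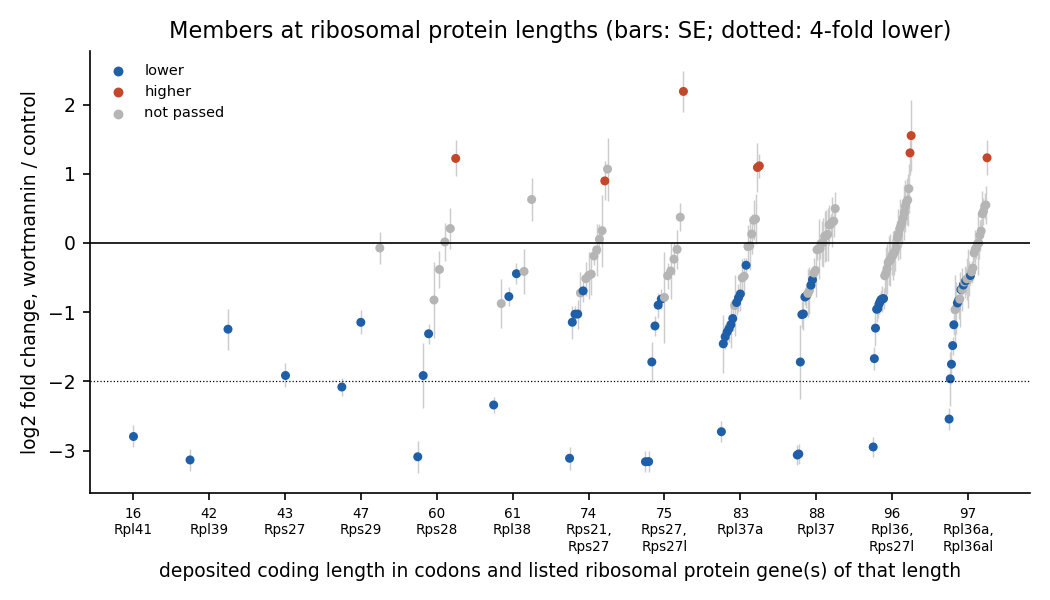
Log2 fold change of wortmannin over control for the 163 members at ribosomal protein lengths, each with its standard error, grouped by deposited length with the listed gene or genes of that length; the dotted line marks a 4-fold fall. At 11 of the 12 lengths 1 or 2 points lie under the dotted line. At lengths of 60 codons or more the other members spread around or below 0. The lengths of 16, 42 and 47 codons hold only 1, 2 and 3 members.

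By transcript identifier, the 2 largest falls among members of at least 5 CPM were uc008cak.1 and uc008qbl.2. The first, of 73 codons, went from 73.0 and 81.4 CPM to 7.55 and 5.88 CPM (log2 fold change -3.52 ± 0.15, edgeR adjusted p = 7.63e-07), and its length is shared by 37 genes, none of them on the ribosomal protein list. The second, of 75 codons, a length of Rps27 and Rps27l, went from 43.8 and 44.8 CPM to 5.601 and 4.275 CPM (-3.16 ± 0.16, edgeR adjusted p = 1.08e-06). Another member of 75 codons, 23982 lines away in the tables, had 1.02 to 1.03 times its value in every library, and 2 members of 88 codons past 4-fold kept a ratio of 1.10 to 1.14. Whether these members share footprints was not tested, so they may not be separate measurements.

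The share of members that fell also followed abundance. Among 183 members under 2 CPM on average over the 4 libraries, 10.4% fell, and among 221 of 2 to 5 CPM, 24.9%. At 5 to 10 CPM 54.4% of 103 fell. In the same order of classes, 5.30%, 9.48% and 17.1% of transcripts of 100 codons or more fell. At 10 to 50 CPM 119 of 153 members fell (77.8%) and 4 rose, with a median log2 fold change of -0.92. Transcripts of 100 codons or more in the same range of 10 to 50 CPM had 26.8% of 7714 lower and 17.6% higher (median -0.08). Within this range 37 of 45 members at a ribosomal protein length fell (median -0.95), as did 82 of 108 at other lengths (median -0.92). The falls of moderately abundant members thus were not limited to ribosomal protein lengths.

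Under 2 CPM the median was -0.12, and a library held few counts for such members. Over all members, not only these, the median count was 64.0 and 134 in control and 26.0 and 23.0 with wortmannin, and no member was at 0 in any library. Whether depth limited the calls among members under 2 CPM was not tested.

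**Figure D5:**
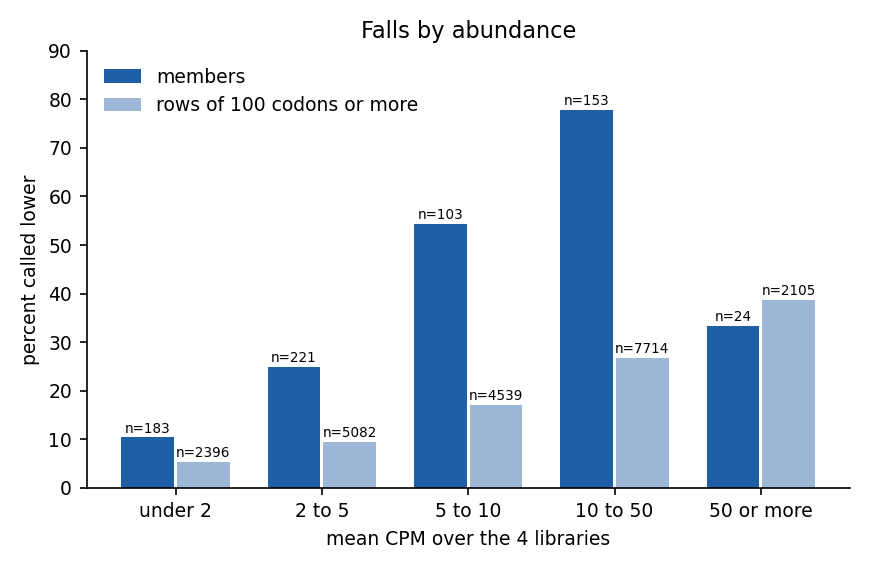
Percent of transcripts called lower with wortmannin in 5 classes of mean CPM, for the members (dark bars) and for transcripts of 100 codons or more (light bars), with the number of transcripts above each bar. Members exceed longer transcripts in the first 4 classes, most at 10 to 50 CPM (77.8% against 26.8%), and not at 50 CPM or more (33.3% against 38.7%), where 11 of the 24 members have 94 codons; without these 61.5% of 13 fell.

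Of the 24 members at 50 CPM or more 8 fell and 3 rose, and the median log2 fold change was 0.07. These values rest on 11 members of 94 codons, none of them called (median 0.08), which may not be separate measurements. Among the other 13, 8 fell (61.5%) and 3 rose, with a median of -0.40. The most abundant member, of 80 codons, had 506 and 552 CPM in control and 398.7 and 321.3 CPM with wortmannin (log2 fold change -0.56 ± 0.13), and it was also the highest per codon, at 5.56 CPM per codon on average. Its fall did not pass without control replicate 2 (-0.49, edgeR adjusted p = 0.148). A member of 77 codons fell further, from 360 and 352 CPM to 122 and 128 CPM (-1.51 ± 0.10).

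A member of 95 codons, second in abundance, went from 335 and 320 CPM to 263 and 234 CPM (log2 fold change -0.40 ± 0.11, edgeR adjusted p = 0.018). This call was lost without control replicate 1 (-0.37, adjusted p = 0.288), without control replicate 2 (-0.43, adjusted p = 0.215) and in DESeq2 (-0.35, adjusted p = 0.107). A member of 52 codons, a length of the metal-binding metallothioneins Mt1 and Mt2 among 21 genes and second per codon at 3.74 CPM per codon, had 180 and 169 CPM in control and 260 and 168 CPM with wortmannin. The groups overlapped, and it did not pass (0.30 ± 0.17, edgeR adjusted p = 0.218). Without wortmannin replicate 2 it was at 0.58, and without wortmannin replicate 1 at -0.05. A member of 89 codons, at 140 and 158 CPM in control and 204 and 146 CPM with wortmannin, did not pass either (0.23 ± 0.15). This member was at 0.44 without wortmannin replicate 2 and at -0.03 without wortmannin replicate 1.

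Of the 24 abundant members, 11 had the same length of 94 codons. They lay within 197 lines of the tables, at 111 to 166 CPM on average, so that the highest had 1.495 times the mean of the lowest, with log2 fold changes of -0.00095 to 0.18 (edgeR adjusted p from 0.305 to 0.997). The length of 94 codons is that of 13 histone H4 genes among 60 genes. Histone H4 is a core protein of the nucleosome, encoded by many near-identical copies in clusters. Whether footprints that fit several copies were counted in each was not tested, so these 11 need not be separate measurements. The highest of them had 152 and 165 CPM in control and 192 and 154 CPM with wortmannin, so its groups overlapped. Without wortmannin replicate 2 it was at 0.27, and without wortmannin replicate 1 at -0.04. The 11 took 0.155% ± 0.0089 of all counts in control and 0.166% ± 0.027 with wortmannin (SD, n = 2), which is 15.8% and 22.0% of the members' counts. The other 22 members of 94 codons had 4 lower and 3 higher, with a median of -0.41.

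Rises were fewer than falls in each class of abundance. Of the 31, 20 were under 5 CPM (64.5%, near the 59.1% of all members that were under 5 CPM), 8 at 5 to 50 CPM and 3 above 50 CPM. The share that rose was 2.73% under 2 CPM, 6.79% at 2 to 5 CPM, 3.88% at 5 to 10 CPM, 2.61% at 10 to 50 CPM and 12.5% of the 24 above 50 CPM. In the same order of classes, 6.59%, 11.5%, 15.2%, 17.6% and 19.4% of transcripts of 100 codons or more rose. The largest rise among members of at least 5 CPM was uc009ukz.2, of 71 codons, from 85.9 and 79.2 CPM to 261 and 349 CPM (log2 fold change 1.89 ± 0.14, edgeR adjusted p = 1.55e-05). The next, uc009hwv.1, of 99 codons, went from 3.25 and 3.86 CPM to 12.1 and 11.6 CPM (1.71 ± 0.17, edgeR adjusted p = 8.52e-05). The most abundant transcripts of 100 codons or more within 5 lines of them in the tables also had positive values, 1.73 and 1.43.

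The other 2 abundant rises, of 98 and 77 codons, were on adjacent lines of the tables. The longer went from 191 and 185 CPM to 382 and 380 CPM (log2 fold change 1.02 ± 0.10), and the shorter from 161 and 152 CPM to 325 and 330 CPM (1.07 ± 0.10). The shorter had 0.822 to 0.870 times the value of the longer in each library, and whether the pair shares footprints was not tested. Neither rise overlapped the controls.

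Members were also set beside the longer transcripts around them, since some transcripts had identical counts in all libraries. Whether transcripts share footprints was not tested. A transcript of 100 codons or more and at least 60 counts lay within 5 lines of 667 members (97.5%), and in 608 cases the most abundant such neighbour had more counts than the member. The median log2 fold change of these members was -0.47, and that of their neighbours -0.16. Across the 667 pairs Pearson's r was 0.316 and Spearman's rho 0.288, a description over transcripts that share libraries. Values lay within 0.25 of each other on the log2 scale in 229 pairs (34.3%). Of the 18 members past 4-fold lower, 4 had a neighbour past 4-fold lower, while the other 14 had neighbours at -1.08 to 0.26. The 4 included the steepest falls, at 69 codons (-3.68, neighbour -3.87) and 73 codons (-3.52, neighbour -3.42). The rest of the 4 were at 16 codons (-2.79, neighbour -2.74) and 80 codons (-2.16, neighbour -2.28). Only 17 members had no such neighbour, of which 7 fell and 1 rose (median -0.56).

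Other short proteins were read only by length, and lengths of most lists overlap. Counts of these lists stand beside 37.6% lower and 4.53% higher over all members, and 20.1% and 14.3% over all distinct transcripts. Lengths of respiratory chain and ATP synthase subunits held 304 members, of which 114 fell (37.5%) and 13 rose (median log2 fold change -0.49). Lengths of mitochondrial import proteins held 227 members, 92 lower (40.5%) and 8 higher (median -0.53), and those of spliceosome and RNA polymerase subunits 235, 89 lower (37.9%) and 14 higher (median -0.46). Thymosin and S100 lengths held 107 members, with 36 lower (33.6%) and 2 higher (median -0.43). Lengths of ubiquitin-like modifiers held 118, with 36 lower (30.5%) and 5 higher (median -0.33), those of secretory pathway subunits 106, with 48 lower (45.3%) and 5 higher (median -0.58), and those of chemokines 112, with 44 lower (39.3%) and 6 higher (median -0.44). The 33 members at metallothionein lengths had 18 lower (54.5%) and 2 higher (median -0.84). These medians stand beside -0.47 over all members, and no list was tested against the rest.

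Where only 1 listed gene has a length, the most abundant member there was also read. At 55 codons, a length of the complex III subunit Uqcr10, it went from 18.2 and 21.8 CPM to 11.5 and 6.81 CPM. At 46 codons, a length of Tomm7, a subunit of the mitochondrial import channel, it went from 17.5 and 17.0 CPM to 10.2 and 5.48 CPM, so the wortmannin libraries differed from each other. At 72 codons, a length of the ubiquitin-like modifier Nedd8, it went from 64.8 and 73.2 CPM to 9.51 and 6.55 CPM, but it lies next to a member of 74 codons, a ribosomal protein length, with nearly the same values (log2 fold changes -3.10 and -3.11). At 63 codons, a length of the splicing regulator Ubl5, it did not pass (0.15 ± 0.14, edgeR adjusted p = 0.419). At 64 codons, another length of Ubl5, it fell from 22.2 and 24.6 CPM to 11.3 and 11.8 CPM (-1.03 ± 0.13, edgeR adjusted p = 0.000435). Each remaining length of this kind above 16 codons had a most abundant member that fell, by 0.63 to 1.32 on the log2 scale. Of these, the call at 85 codons was lost without control replicate 2 (-0.57, edgeR adjusted p = 0.0792). The call at 57 codons was lost without control replicate 2 (-0.53, adjusted p = 0.178) and in DESeq2 (-0.65, adjusted p = 0.0524).

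Together the 684 members held 0.967% and 1.01% of all counts in control and 0.800% and 0.707% with wortmannin. Both wortmannin shares were lower, at 0.753% ± 0.066 against 0.988% ± 0.0299 (SD, n = 2; two-sided exact permutation p = 0.333, the smallest that 2 against 2 allows). Members at ribosomal protein lengths went from 0.199% ± 0.00599 to 0.0965% ± 0.00618, which is 0.485 times the control share, with the same exact p. The wortmannin libraries differed more from each other than the control libraries did. The median size of the log2 difference within a pair was 0.311 for wortmannin and 0.140 for control over the members, and 0.239 and 0.103 over all distinct transcripts.

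The limits of the set were checked by description. The 21 members of 99 codons had a median log2 fold change of -0.11, and the 12 transcripts of 100 codons just outside had -0.25. The 40 members with 60 to 69 counts had a median of 0.01. The 42 transcripts with 50 to 59 counts just outside had -0.24. They were not in the main fit, so their value came from the fit without a low-count filter.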

How the data were processed

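The authors deposited a whole-number count of footprints for each UCSC transcript in each library, with a coding length in codons beside it. Totals differ between libraries, so the counts appear not to be normalised. The submitters' processing notes name CASAVA 1.8, STAR 2.7.0 and mm10, and the tool used for counting was not given in the sources used here. Lysis was in cycloheximide and digestion with RNase I, per the labels' protocols.

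Differences were tested in R 4.3.3 with edgeR 4.0.16 (quasi-likelihood F test). Library sizes were file totals without normalization factors, and all transcripts with at least 60 summed counts (25868) were fitted, with Benjamini-Hochberg adjustment over all of them. Each standard error was taken as |log2 fold change| over the root of F. Levels in CPM were scaled to file totals. Counts were also simulated for this comparison over 25868 transcripts. Changes were recovered in 28.4% of 67 cases at 1.5-fold, in 79.1% of 67 at 2-fold and in 98.5% of 66 at 4-fold. False calls made up 12.2% of calls, above the level of 0.05 set for the adjusted p. Only these cases were changed, a far smaller share than the 34.4% of distinct transcripts called in the data. The simulated rates therefore need not carry over to the data. Annotated lengths came from GENCODE M21. Python 3.11.15 and scipy 1.17.1 served the remaining steps.

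The members, gene lists and tests were chosen with earlier results of these data known. Transcripts given by identifier are the 2 largest rises and 2 largest falls among called members of at least 5 CPM whose groups do not overlap. Others are given by length: the 10 highest per codon, the shortest and longest, the most abundant at lengths of 1 listed gene, and some singled out after their values were seen. Alternatives were TMM, DESeq2 1.42.0, other filters, thinning and leaving out each library.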

Additional observations from a re-analysis of the deposited data

How the results depend on the processing

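Among the members the median stayed negative and falls outnumbered rises in every alternative run. DESeq2 called 165 members lower, and 2327 transcripts higher and 2632 lower over the whole table; 103 members had no adjusted p there. With at least 200 summed counts, 12 of 393 members rose, 228 fell and the median was -0.69. Over all 19806 transcripts with that filter 3153 rose, 4826 fell and the median was -0.07. Thinned to the smallest library, 504 members remained with a median of -0.62, and without a low-count filter 1046 gave -0.36. Of the 17 members with no longer transcript near, 1 rose and 7 fell (median -0.56); this set is smaller. A filter giving the libraries equal weight left 253 members lower and 35 higher of 681, and 5030 lower and 3879 higher of all 25924 transcripts. With 1 library left out, members ranged from 170 to 288 lower and from 19 to 51 higher, the most rises without wortmannin replicate 2, and all transcripts from 2615 to 6253 lower and from 1569 to 5603 higher, fewest without control replicate 2. The library left alone in its group takes its spread from the other pair. Without control replicate 1 the whole table gave 2934 lower and 2030 higher. With the replicate number as a block, 249 members were lower and 27 higher, and 4544 lower and 3435 higher of all 25868 transcripts. The labels do not say that the numbers pair the libraries, so the block was only an alternative. Deviations of same-numbered libraries correlated at -0.04 over the members. Where no cause is given by fewer transcripts or libraries, the cause was not tested. Of the 183 members under 2 CPM 159 did not pass, and whether depth limited these calls was not tested.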
